A study of Mus musculus with 9 samples.

Results

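Translation initiation factor genes were taken as the rows of the gene count table whose symbol began with Eif and a digit from 1 to 6. Of 60 such rows, 14 were left out: 4 Eif2ak kinase genes, the 3 genes Eif1ax, Eif2s3x and Eif2s3y, and 7 pseudogene rows with -ps in the symbol. The other 46 of the 18954 rows in the table were the genes described here. RNA from 9 mouse livers had been sequenced, all labelled day 42. The 4 control livers had the genotype GSDMD-NT ki/wt, a single knock-in allele for the N-terminal domain of the pore-forming protein gasdermin D. The 5 Alb-cre livers had the genotype GSDMD-NT ki/wt & Alb-cre ki/wt, and so carried the same allele together with Cre recombinase driven by the albumin promoter, which is active in hepatocytes. The series text describes doxycycline-induced cell death as the basis of a liver fibrosis model, and the labels do not say which livers received doxycycline. Alb-cre was present in no liver that lacked GSDMD-NT, so effects of Cre and of GSDMD-NT cannot be told apart. The labels give no age, sex or litter and do not say that the livers came from separate animals, so the p-values reflect spread among the 9 samples, part of which may be technical.

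Initiation is the step at which a ribosome is brought to an mRNA and placed on its start codon. The eIF2 complex carries the initiator tRNA to the small ribosomal subunit and is recharged with GTP by eIF2B. When stress kinases phosphorylate the alpha subunit of eIF2, eIF2B is blocked and general translation drops. In parallel, eIF4E binds the mRNA cap, eIF4G bridges it to the ribosome, and the helicase eIF4A unwinds the leader, while the 4E-BP proteins hold eIF4E back unless mTORC1 phosphorylates them. Hepatocytes depend on this machinery for their large output of secreted proteins. A transcript level is not a rate of translation, which was not measured here.

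Most initiation factor genes differed little between the groups, and those that changed were mainly higher in the Alb-cre livers. Eif1a, Eif2s1, Eif2b4, Eif4e, Eif4e3 and Eif4g2 rose, and Eif4a2 fell. All 46 genes passed the filter on low counts and were tested by quasi-likelihood in edgeR, with p adjusted by Benjamini and Hochberg's method over all 14004 tested genes and a call at an adjusted p under 0.05. The 6 rises were 13% of the 46 genes, against 9.25% of all tested genes called higher. The single fall was 2.17% of the 46, against 9.07% of all tested genes called lower. Calls in either direction made up 15.2% of the initiation factor genes and 18.3% of all tested genes, so in this fit the share called was no larger than the background. Under other settings it was larger or smaller than the background. With DESeq2 14 of the 46 genes were called, against 24.1% of all tested genes. Without control liver 2 it was 2 of the 46, against 8.36%. The groups did not overlap for 14 of the 46 genes, or 30.4%, against 18.5% of all tested genes, and 12 of these 14 were higher in Alb-cre. An unadjusted p under 0.05 was found for 20 of the 46 genes and for 4881 of the 14004. Of the 46 log2 fold changes 26 were positive and 20 negative, with a median of 0.09 against 0.01 over all tested genes, and 38 were under 0.5 in size. The count of rises was 2 without control liver 2, when Eif1a and Eif2b4 were called. With 1 liver left out at a time, the median of the 46 genes was lowest without control liver 4, at 0.032 against 0.015 over all tested genes. It was highest without control liver 1, at 0.143 against 0.016.

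**Figure D1:**
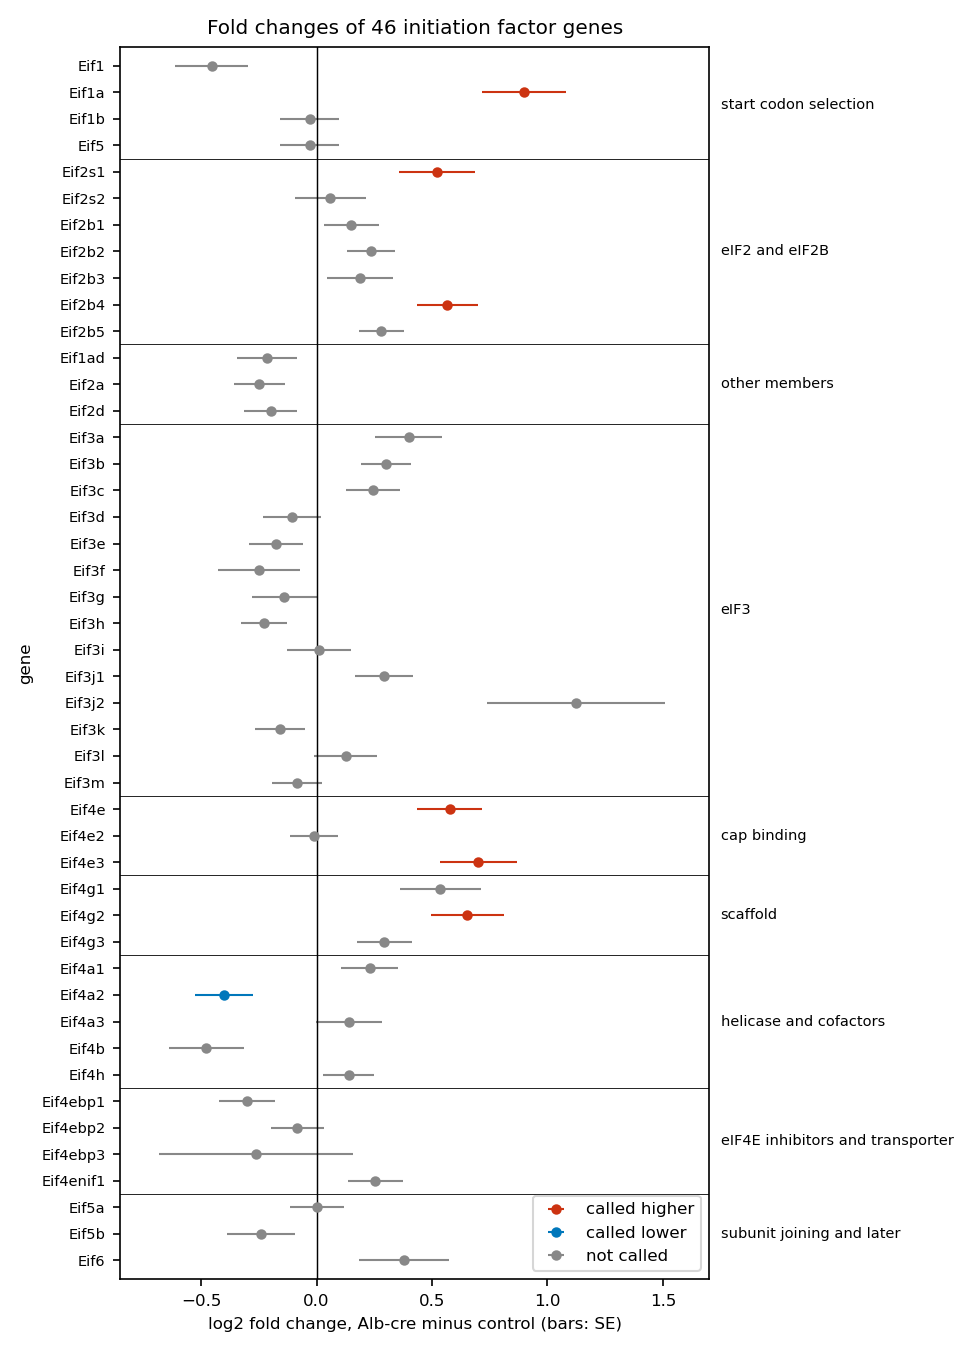
Log2 fold change of each of the 46 initiation factor genes, Alb-cre minus control, on the x axis, with bars for the SE and genes grouped by role on the y axis. Called genes are marked by colour, and most points lie within 0.5 of 0 on either side.

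The regulatory sequence just before the start site is shown for called genes with a RefSeq entry and for the helicase pair Eif4a1 and Eif4a2, whose fold changes had opposite signs. RefSeq promoter sequences of GRCm38.p6, an older build than the GRCm39 named in the submitters' processing notes, were matched by symbol for 35 of the 46 genes, which had 47 start sites. No sequence is shown for Eif1a, Eif4e3 and Eif4g2. Each sequence below is 120 bases long, ends at the base before the start site, and is written 5′ to 3′ on the strand of the gene. Capitals mark matches on either strand to the E-box CACGTG, the GC box GGGCGG and the CCAAT box CCAAT. Eif4e, the downstream of its start sites, is at chr3:138527148-138527267 on the plus strand. Eif2b4 is at chr5:31193140-31193259 on the minus strand. Eif2s1 is at chr12:78861952-78862071 on the plus strand. Eif4a1 is at chr11:69672424-69672543 on the minus strand, and Eif4a2 is at chr16:23107348-23107467 on the plus strand.
Eif4e: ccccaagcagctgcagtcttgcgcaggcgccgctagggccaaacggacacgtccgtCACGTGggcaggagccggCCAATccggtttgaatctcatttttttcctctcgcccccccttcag
Eif2b4: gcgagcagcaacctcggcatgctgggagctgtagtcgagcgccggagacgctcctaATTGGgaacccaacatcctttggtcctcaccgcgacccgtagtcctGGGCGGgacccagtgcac
Eif2s1: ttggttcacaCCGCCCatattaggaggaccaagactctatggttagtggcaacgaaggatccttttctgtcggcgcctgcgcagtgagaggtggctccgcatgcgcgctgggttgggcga
Eif4a1: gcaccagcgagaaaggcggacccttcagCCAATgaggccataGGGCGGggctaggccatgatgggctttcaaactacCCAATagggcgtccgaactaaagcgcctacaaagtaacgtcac
Eif4a2: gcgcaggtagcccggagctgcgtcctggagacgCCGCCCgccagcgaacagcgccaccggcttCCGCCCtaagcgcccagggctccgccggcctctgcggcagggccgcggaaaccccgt

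Within 250 bases before the start, searched on both strands, the E-box, the site bound by MYC and related factors, was present at 10 of the 47 start sites, or 21.3%, against 6.02% of 32851 start sites of all genes. It lay before Eif1b, Eif3f, Eif3k, Eif4a1, Eif4e, Eif4g1, Eif4h and Eif5a, and of these Eif4e was the only one called. The GC box was present at 68.1% of the 47 start sites against 32.7% of all start sites, and the CCAAT box at 23.4% against 33.8%. The ETS site CCGGAAG was present at 21.3% against 6.91%. The CRE TGACGTCA and the ATF4-C/EBP element TGATGNAA were found at 0 of the 47, with 1.55% and 3.45% over all start sites. None of the 6 motifs contains another, and a match describes letters only. The 32851 start sites were not limited to genes expressed in these livers and were not matched for base content. Whether the shares are particular to initiation factor genes was not tested.

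Among the factors that act in start codon selection, Eif1a rose and the other 3 genes did not pass the test. Eif1a encodes an eIF1A protein, which binds the small subunit and helps it scan. Eif1a (ENSMUSG00000057561.11) was measured at 38.0, 24.0, 31.7 and 22.6 CPM in controls 1 to 4 and at 55.8, 63.6, 45.3, 43.1 and 63.4 CPM in Alb-cre livers 1 to 5. CPM here are counts scaled to library size after TMM normalization. Every Alb-cre liver was above every control. The means were 29.1 ± 7.16 (SD, n = 4) and 54.2 ± 9.73 CPM (SD, n = 5), a log2 fold change of 0.90 ± 0.18 (SE; edgeR adjusted p = 0.00881). The closely related Eif1ax, which the rule leaves out, was at 29.8 ± 6.99 and 32.9 ± 1.80 CPM, a log2 fold change of 0.14 ± 0.15 (edgeR adjusted p = 0.520), and reads shared between such paralogs could be split by the counting.

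Eif1, which guards against initiation at the wrong codon, was at 179, 286, 199 and 271 CPM in controls and at 166, 194, 176, 175 and 142 CPM in Alb-cre livers. The Alb-cre livers lay low but overlapped the controls, and the log2 fold change of -0.45 ± 0.16 did not pass (edgeR adjusted p = 0.0632). With 1 liver left out at a time it passed without control 1 only, at an adjusted p of 0.0388, and the adjusted p was otherwise up to 0.194. Eif5, the GTPase-activating partner of eIF2, had means of 210 ± 27.4 and 206 ± 20.4 CPM (SD, n = 4 and 5) and a log2 fold change of -0.03 ± 0.13 (edgeR adjusted p = 0.891). Eif1b, a paralog of Eif1, also had a log2 fold change of -0.03 ± 0.13.

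In the eIF2 and eIF2B group, all 7 log2 fold changes were positive, with a median of 0.24, and 2 genes rose. The gamma subunit genes Eif2s3x and Eif2s3y, which the rule leaves out, are not among the 7 and were not called. Their log2 fold changes were 0.75 ± 0.28 (edgeR adjusted p = 0.0772) and -0.16 ± 0.11 (edgeR adjusted p = 0.299). The groups overlapped for Eif2s3x and were apart for Eif2s3y, which was lower in Alb-cre. Eif2s1 encodes the alpha subunit of eIF2, the target of the stress kinases. Eif2s1 (ENSMUSG00000021116.11) was at 31.5, 25.1, 31.9 and 17.9 CPM in controls and at 37.0, 36.6, 36.4, 35.7 and 45.04 CPM in Alb-cre livers. Control 4 was low and Alb-cre 5 high, and the groups did not overlap. The means were 26.6 ± 6.59 and 38.1 ± 3.89 CPM, with a log2 fold change of 0.52 ± 0.16 (edgeR adjusted p = 0.0454). This call was lost without control 2 or 4 or Alb-cre 1, 2, 4 or 5, with an adjusted p of at most 0.112. Eif2s2, the beta subunit, was at 60.4 ± 13.9 and 63.0 ± 4.72 CPM (log2 fold change 0.06 ± 0.15, edgeR adjusted p = 0.810). The ratio of Eif2s1 to Eif2s2, which was chosen after the values were seen and is given as a description, was 0.439 ± 0.0199 in controls and 0.607 ± 0.0638 in Alb-cre livers.

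Eif2b4 encodes the delta subunit of eIF2B, part of the regulatory core that senses phosphorylated eIF2. Eif2b4 (ENSMUSG00000029145.13) was at 40.8, 39.96, 38.5 and 36.1 CPM in controls and at 55.2, 71.2, 45.8, 62.2 and 53.3 CPM in Alb-cre livers. The controls were close together, and all Alb-cre livers were above them. The log2 fold change was 0.57 ± 0.13 (edgeR adjusted p = 0.0150). Its exons overlap those of Snx17 on the opposite strand over 204 bases in GENCODE M21 (GRCm38), and the sources used here do not give the strand setting of the counting.

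Eif2b5, the catalytic epsilon subunit, was at 37.1, 35.6, 35.4 and 30.9 CPM in controls and at 45.9, 40.6, 42.4, 41.1 and 41.1 CPM in Alb-cre livers. The groups did not overlap, but the log2 fold change of 0.28 ± 0.10 did not pass (edgeR adjusted p = 0.0666). Eif2b2, the beta subunit, likewise had groups apart and no call, at 24.2 ± 2.33 and 28.5 ± 1.18 CPM (log2 fold change 0.24 ± 0.10, edgeR adjusted p = 0.128). Eif2b1 and Eif2b3, the alpha and gamma subunits, had log2 fold changes of 0.15 ± 0.12 and 0.19 ± 0.14. Eif2a and Eif2d, which can deliver initiator tRNA without eIF2, had log2 fold changes of -0.25 ± 0.11 and -0.20 ± 0.12 and were not called. Eif1ad, named for an eIF1A-like domain, had a log2 fold change of -0.21 ± 0.13 and was not called.

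None of the 14 eIF3 genes, which encode the large complex that binds the small subunit and keeps it open for mRNA, was called. Their log2 fold changes had a median of -0.04, with 7 positive. Eif3a, the largest subunit, was at 130, 120, 149 and 87.1 CPM in controls and at 161, 153, 166, 149 and 173 CPM in Alb-cre livers, with a log2 fold change of 0.40 ± 0.15 (edgeR adjusted p = 0.0747). With 1 liver left out at a time it passed without control 3 only, at an adjusted p of 0.0391, and the adjusted p was otherwise up to 0.155. The lowest Alb-cre liver and the highest control, both near 149 CPM, nearly met. Eif3b, the RNA-binding core subunit, was at 127 ± 8.63 and 156 ± 12.7 CPM, with groups apart and an adjusted p of 0.0728. Eif3h went the other way, at 132 ± 6.91 and 113 ± 6.36 CPM, with groups apart and a log2 fold change of -0.23 ± 0.10 (edgeR adjusted p = 0.125). Eif3f, the deubiquitinase-related subunit, was at 54.7, 89.0, 48.4 and 73.2 CPM in controls and at 55.6, 69.4, 47.1, 54.0 and 52.8 CPM in Alb-cre livers. Its groups overlapped, with controls 2 and 4 above every Alb-cre liver (log2 fold change -0.25 ± 0.18, edgeR adjusted p = 0.338). Eif3j2, a second gene for the eIF3j subunit, had the highest log2 fold change of the 46 genes at 1.12 ± 0.39, without a call (edgeR adjusted p = 0.0606). It was counted at 15 to 78 reads per liver, and Alb-cre 5, at 5.18 CPM, stood above the other 4 at 1.66 to 2.42 CPM. Without Alb-cre 4 it was called, at an adjusted p of 0.0497, but not with any other liver left out, when the adjusted p was up to 0.154.

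**Figure D2:**
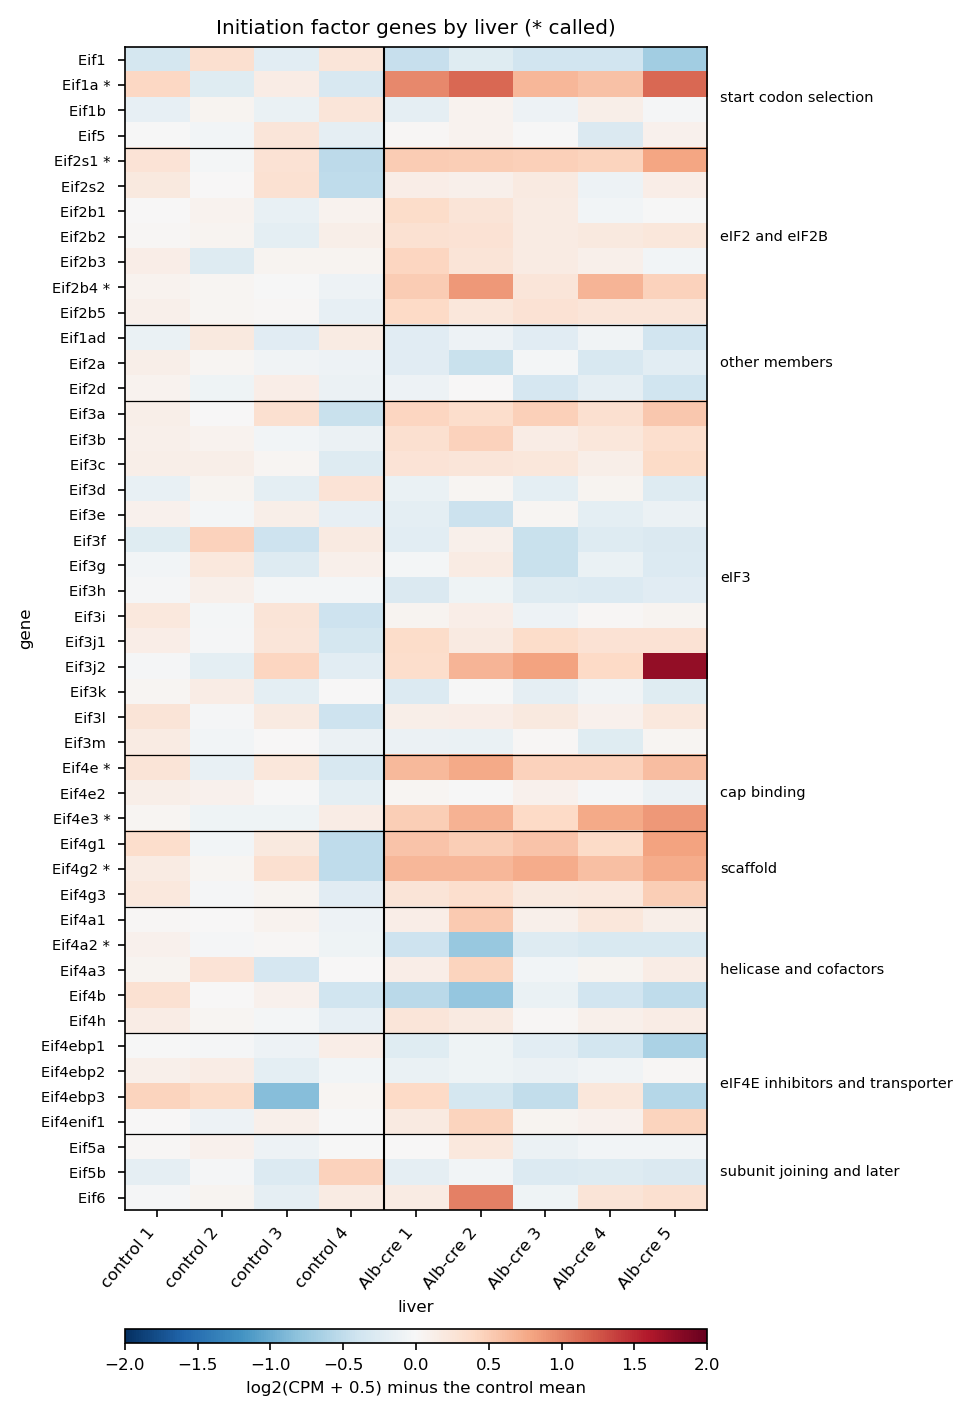
Colour shows log2(CPM + 0.5) of each of the 46 genes in each liver minus the control mean, with genes in rows by role and livers in columns. Stars mark called genes, and the called rises are red across all 5 Alb-cre livers while control 4 is blue for several genes.

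Among cap-binding genes, Eif4e and Eif4e3 rose and Eif4e2 did not pass the test. Eif4e (ENSMUSG00000028156.13), whose promoter is printed above, was at 44.2, 33.3, 43.5 and 29.5 CPM in controls and at 58.4, 63.1, 51.0, 51.0 and 56.9 CPM in Alb-cre livers. All 5 Alb-cre livers were above the controls, with means of 37.6 ± 7.34 and 56.1 ± 5.15 CPM and a log2 fold change of 0.58 ± 0.14 (edgeR adjusted p = 0.0181). Eif4e3, a cap-binding paralog, encodes a protein that can compete with eIF4E. Eif4e3 (ENSMUSG00000093661.2) was at 4.87, 4.39, 4.40 and 5.26 CPM in controls and at 6.82, 7.99, 6.34, 8.30 and 9.04 CPM in Alb-cre livers. The groups were apart, with a log2 fold change of 0.70 ± 0.17 (edgeR adjusted p = 0.0163). It was counted at 60 to 146 reads per liver and shares 373 exonic bases on its strand with Gm20696, so its count is uncertain where reads could be split. Without control 2 the adjusted p was 0.0612 for Eif4e and 0.0511 for Eif4e3. Eif4e2, which encodes 4EHP, a cap-binding protein that does not bind eIF4G and represses translation, was at 53.9 ± 5.26 and 53.4 ± 2.95 CPM (edgeR adjusted p = 0.953).

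**Figure D3:**
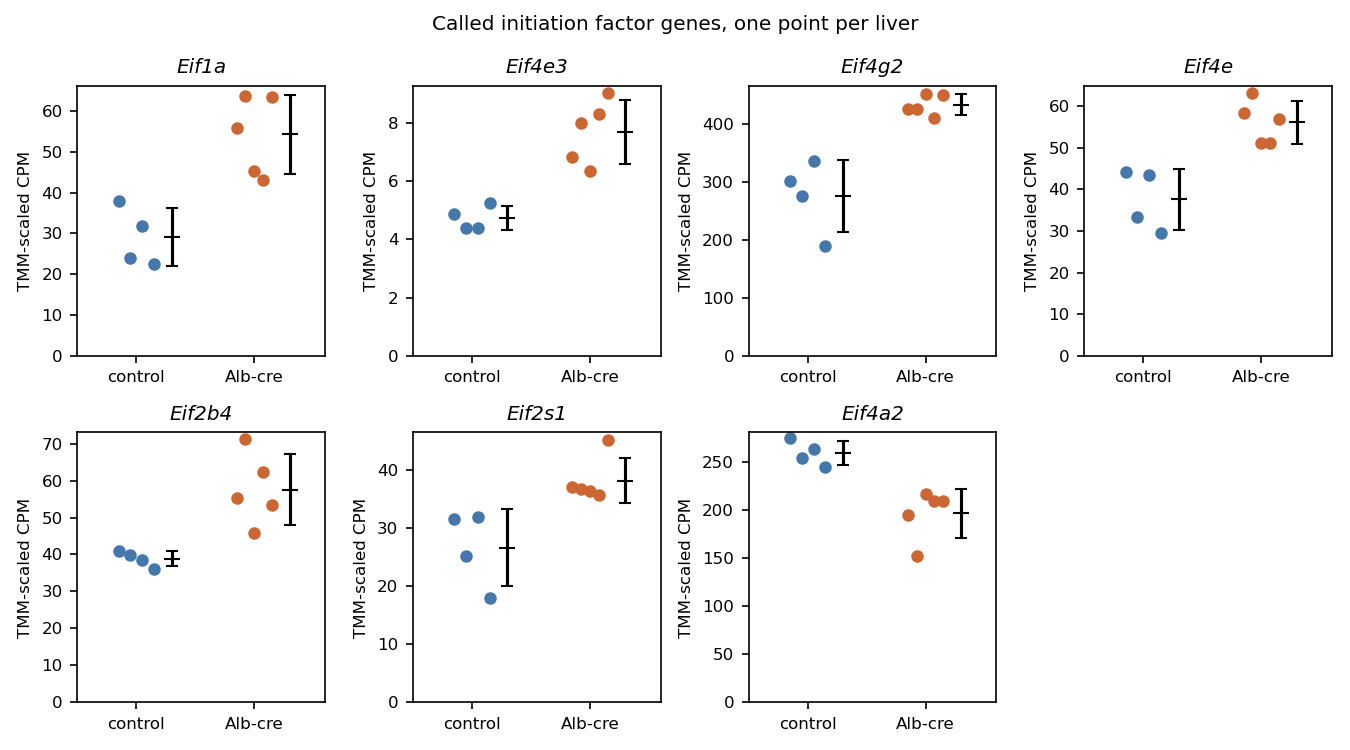
TMM-scaled CPM of the 7 called genes, one point per liver, with the group mean and SD beside the points. In every panel the control and Alb-cre points do not overlap, and Eif4a2 is the gene with the lower Alb-cre values.

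The 3 scaffold genes all had positive log2 fold changes, and Eif4g2 rose. Eif4g2 encodes DAP5, an eIF4G relative without the eIF4E-binding region that serves translation independent of eIF4E. Eif4g2 (ENSMUSG00000005610.18) was at 301, 276, 335 and 189 CPM in controls and at 426, 426, 452, 410 and 450 CPM in Alb-cre livers. The Alb-cre livers were close together and all above the controls, with a log2 fold change of 0.65 ± 0.16 (edgeR adjusted p = 0.0176). The adjusted p without control 2 was 0.0511. Eif4g1, the main scaffold, was at 558, 421, 501 and 307 CPM in controls and at 651, 614, 645, 569 and 762 CPM in Alb-cre livers. The groups did not overlap, but control 1 came close to Alb-cre 4, and the log2 fold change of 0.54 ± 0.17 fell just short (edgeR adjusted p = 0.0514). With 1 liver left out at a time it was called without control 1 only, at a log2 fold change of 0.67 and an adjusted p of 0.0312. Otherwise the adjusted p was up to 0.127, and without control 4 the log2 fold change was 0.39. Eif4g3, the other eIF4G paralog, had overlapping groups and a log2 fold change of 0.29 ± 0.12 (edgeR adjusted p = 0.101).

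The helicase paralogs Eif4a1 and Eif4a2 had log2 fold changes of opposite sign, and Eif4a2 alone was called. Eif4a2 (ENSMUSG00000022884.17), the paralog also studied in microRNA repression, was at 274, 254, 263 and 244 CPM in controls and at 194, 153, 216, 209 and 210 CPM in Alb-cre livers. All Alb-cre livers were below the controls, Alb-cre 2 lowest, with means of 259 ± 12.8 and 196 ± 25.8 CPM and a log2 fold change of -0.40 ± 0.13 (edgeR adjusted p = 0.0451). Leaving out any liver other than Alb-cre 3 lost the call, with an adjusted p of at most 0.0956, and the log2 fold change stayed negative. Its exons also overlap snoRNA genes on the same strand, and Rfc4 over 194 exonic bases on the opposite strand. Exons of Eif4a1, Eif4g2 and Eif5 overlap snoRNA genes on their own strand too, over 127 to 150 bases for each snoRNA. Eif4a1, the more general helicase, was at 246, 243, 254 and 225 CPM in controls and at 265, 348, 260, 283 and 263 CPM in Alb-cre livers. The groups were apart because Alb-cre 3 at 260 CPM lay just above control 3 at 254 CPM, and the log2 fold change of 0.23 ± 0.12 did not pass (edgeR adjusted p = 0.206). The pseudogene row Eif4a-ps4, which could share reads with Eif4a genes, held 378 to 824 counts per liver. It was at 34.5 ± 8.74 CPM in controls and 48.1 ± 5.80 CPM in Alb-cre livers, with groups apart. Its log2 fold change of 0.48 ± 0.17 did not pass (edgeR adjusted p = 0.0692), and its part in the Eif4a values was not tested.

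Described without a test, since the pair was picked after its values were seen, the ratio of Eif4a2 to Eif4a1 in CPM, not corrected for length, was 1.12, 1.04, 1.04 and 1.09 in controls. In Alb-cre livers it was 0.734, 0.438, 0.832, 0.740 and 0.797, below every control. Eif4b, which stimulates the helicase, was at 323, 264, 278 and 199 CPM in controls and at 179, 153, 238, 201 and 184 CPM in Alb-cre livers. Its groups overlapped through control 4 and its log2 fold change of -0.48 ± 0.16 was the lowest of the 46, without a call (edgeR adjusted p = 0.0584). It was called without control 4 or without Alb-cre 3, at adjusted p of 0.0372 and 0.0324. With any other liver left out it was not called, and the adjusted p was up to 0.147. Eif4h, a related cofactor, and Eif4a3, the helicase of the exon junction complex, each had a log2 fold change of 0.14 and were not called.

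**Figure D4:**
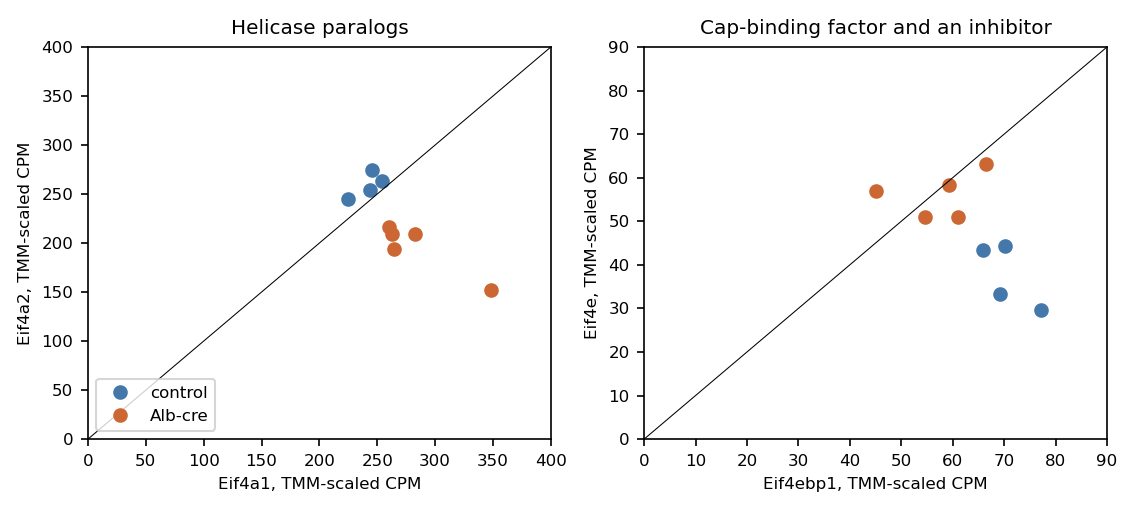
TMM-scaled CPM of Eif4a2 against Eif4a1 (left) and of Eif4e against Eif4ebp1 (right), one point per liver, with a line of equal levels. Control points lie just above the line for the helicases and below it for Eif4e, and Alb-cre points lie below the line for the helicases.

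None of the 4 genes for eIF4E inhibitors and the eIF4E transporter was called. Eif4ebp1, a 4E-BP inhibitor, was at 70.1, 69.2, 65.9 and 77.1 CPM in controls and at 59.3, 66.5, 61.0, 54.5 and 45.04 CPM in Alb-cre livers. The groups overlapped only through Alb-cre 2, and the log2 fold change was -0.30 ± 0.12 (edgeR adjusted p = 0.103). Eif4ebp2, another 4E-BP inhibitor, was at 336 ± 36.4 and 317 ± 13.9 CPM (log2 fold change -0.08 ± 0.12, edgeR adjusted p = 0.643). Eif4ebp3 had the widest range within a group of the 46 genes, 3.91-fold among the controls, at 2.01, 1.87, 0.513 and 1.37 CPM. In Alb-cre livers it was at 1.91, 0.932, 0.807, 1.65 and 0.731 CPM, with 7 to 33 counts per liver, and the log2 fold change of -0.26 ± 0.42 did not pass (edgeR adjusted p = 0.691). Eif4ebp3 shares 501 exonic bases on its strand with AC115631.1, so its count is uncertain where reads could be split. As a description without a test, the ratio of Eif4e to Eif4ebp1 was 0.631, 0.481, 0.660 and 0.383 in controls and 0.984, 0.949, 0.836, 0.935 and 1.26 in Alb-cre livers. This pair too was chosen after its values were seen. Eif4enif1, the transporter of eIF4E, had a log2 fold change of 0.26 ± 0.12 (edgeR adjusted p = 0.155).

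The genes that act at subunit joining and after it were not called. Eif5b, the GTPase that joins the subunits, was at 97.2, 109, 91.1 and 151 CPM in controls, with control 4 apart, and at 89.7 to 105 CPM in Alb-cre livers (log2 fold change -0.24 ± 0.15, edgeR adjusted p = 0.268). Eif5a, an abundant factor now known mainly for elongation, was at 389 ± 20.9 and 389 ± 36.7 CPM, a log2 fold change of 0.00 ± 0.12 (edgeR adjusted p = 0.993). Eif6, which keeps the large subunit from joining early, was at 24.9, 26.3, 22.4 and 28.5 CPM in controls and at 28.7, 51.5, 23.9, 30.5 and 31.9 CPM in Alb-cre livers. Alb-cre 2 was high and the log2 fold change of 0.38 ± 0.19 did not pass (edgeR adjusted p = 0.185).

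Of 76 tested genes in 6 lists of translation partners, 8 rose and 4 fell, or 15.8% called, against 18.3% of all tested genes called in either direction, 9.25% higher and 9.07% lower. In this fit the share called was no larger than the background. The median log2 fold change of the 76 genes was 0.08. The rises numbered 5 without control 2 or 4, or without Alb-cre 1 or 5. In these 4 fits 8.36%, 8.54%, 10.2% and 11.5% of all tested genes were called in either direction. Among the 9 genes for eIF2 kinases and phosphatase subunits, 2 rose. Eif2ak3, the kinase PERK of the endoplasmic reticulum, was at 16.6, 14.8, 15.4 and 10.8 CPM in controls and at 35.4, 31.8, 25.2, 25.3 and 26.8 CPM in Alb-cre livers. All Alb-cre livers were above the controls, with a log2 fold change of 1.00 ± 0.16 (edgeR adjusted p = 0.00417). Nck1, an adaptor that can regulate eIF2 phosphorylation, rose by 0.62 ± 0.14 (edgeR adjusted p = 0.0121). The kinase genes Eif2ak1, Eif2ak2 and Eif2ak4 had log2 fold changes of -0.09 ± 0.11, 0.42 ± 0.19 and 0.20 ± 0.13 and were not called. Ppp1r15a and Ppp1r15b, whose proteins bring a phosphatase to eIF2, were at -0.02 ± 0.25 and 0.19 ± 0.13 and were not called.

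Among 25 initiation partners and mRNA-binding regulators, 2 rose and 2 fell. Dhx29, a helicase that aids scanning, rose from 10.6 ± 2.75 to 18.5 ± 1.80 CPM (log2 fold change 0.80 ± 0.17, edgeR adjusted p = 0.0103). Pabpn1, the nuclear poly(A)-binding protein, fell from 47.4 ± 9.88 to 27.6 ± 4.50 CPM (log2 fold change -0.78 ± 0.16, edgeR adjusted p = 0.00908). Of 20 genes of mTORC1 and S6 kinase, 2 rose and 1 fell. Ddit4, which encodes an mTORC1 inhibitor induced by stress, was at 4.81, 4.33, 2.71 and 6.57 CPM in controls and at 21.7, 30.8, 12.8, 11.8 and 7.37 CPM in Alb-cre livers. The Alb-cre livers were all higher but spread widely (log2 fold change 1.86 ± 0.39, edgeR adjusted p = 0.00994). Tsc1, which holds mTORC1 off as part of the TSC complex, fell from 36.0 ± 2.13 to 25.7 ± 1.67 CPM (log2 fold change -0.48 ± 0.10, edgeR adjusted p = 0.00927).

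The elongation factors had 1 rise and 1 fall among 14 genes, Dph1, a diphthamide synthesis gene, at a log2 fold change of 0.53 ± 0.15 and Eefsec, the selenocysteine elongation factor, at -0.54 ± 0.15. Dph1 lost its call without control 2, 3 or 4 or Alb-cre 1, 3 or 5, and Eefsec without control 2 or 4 or Alb-cre 1 or 4, with adjusted p of at most 0.0968 and 0.0848. Of 6 tested termination and recycling genes 1 rose, Gspt1, which encodes the release factor eRF3, from 48.7 ± 17.6 to 78.3 ± 6.08 CPM (log2 fold change 0.69 ± 0.22, edgeR adjusted p = 0.0476). It kept its call without control 1 or 3 only, and the adjusted p was at most 0.115 with another liver left out. Neither mitochondrial initiation factor gene was called. For comparison, 3 of 20 cytosolic aminoacyl tRNA synthetase genes rose and 1 fell, with a median of 0.32. Of 94 tested cytosolic ribosomal protein genes 2 rose and 13 fell, with a median of -0.27. Calls in either direction over all tested genes were 18.3%. The 46 initiation factor genes lay between these 2 medians, and the difference was not tested.

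Over the livers, the mean log2 deviation of the 46 genes from the control mean was 0.08, 0.03, -0.01 and -0.10 in controls 1 to 4 and 0.12, 0.18, 0.06, 0.07 and 0.12 in Alb-cre 1 to 5. Control 4 was the lowest control for 26 of the 46 genes. The summed level of the 46 genes was 4924, 4772, 4709 and 4176 CPM in controls and 4951, 5153, 4903, 4754 and 5106 CPM in Alb-cre livers, so that the groups overlapped. In the controls, Eif5a had the highest level per kilobase of transcript at 303 CPM per kb, followed by Eif1 at 177, Eif4a1 at 136 and Eif4a2 at 118, and Eif3j2 was lowest at 0.509. In the Alb-cre livers Eif4a1 and Eif4a2 were at 160 and 89.2 CPM per kb.

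Longer transcripts had higher log2 fold changes, among these genes and among all genes. Across genes, which are not independent replicates, Spearman's rho of log2 fold change with length in GENCODE M21 was 0.28 for the 46 genes and 0.24 for 13836 tested genes. The 11 genes with at least 3000 bases had a median log2 fold change of 0.29, with 8 positive, and the 35 shorter genes 0.00, with 18 positive. Over all tested genes these medians were 0.14 and -0.07. In a fit corrected for length, Eif2s1 was no longer called, at a log2 fold change of 0.43 and an adjusted p of 0.0722. In that fit 6 of the 7 genes called without it were still called, and 2 more were called, Eif2b2 at a log2 fold change of 0.32 (adjusted p = 0.0407) and Eif4b at -0.52 (adjusted p = 0.0410). Of all genes tested in the length-corrected fit, 15.3% were called. The part of transcript length in the results was not tested beyond this fit.

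**Figure D5:**
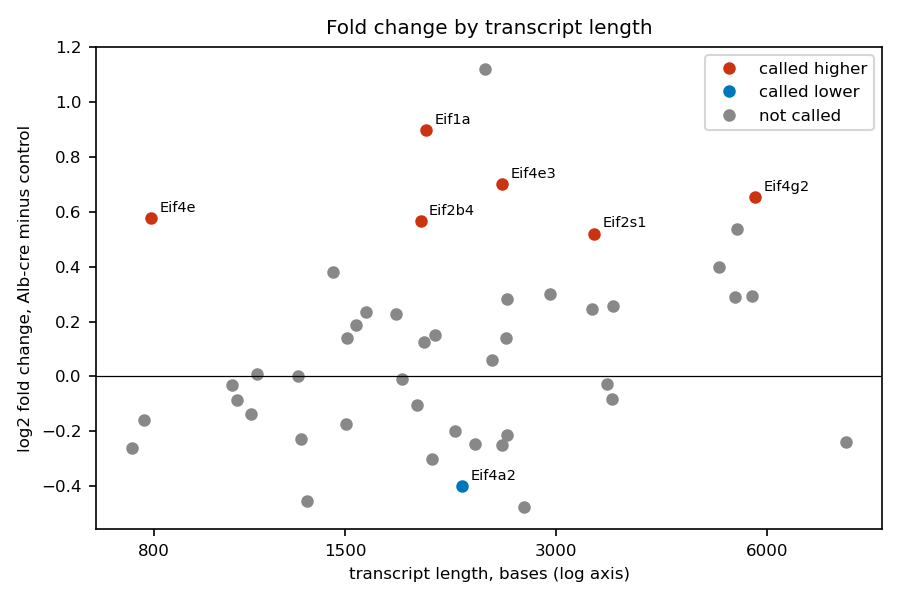
Log2 fold change, Alb-cre minus control, of each of the 46 genes against transcript length in bases (log axis), with called genes marked. Genes of at least 3000 bases lie mostly above 0, with a median of 0.29.

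The 9 libraries held 13361093 to 16823506 counts each and 17415 to 17775 detected genes. Mitochondrially encoded genes took 5.76 to 9.55% of counts in controls, highest in control 4, and 4.23 to 6.46% in Alb-cre livers. The summed level of 6 hepatocyte markers, Alb among them, was 68221 to 84738 CPM in controls and 50419 to 65706 CPM in Alb-cre livers. Ttr and Asgr1 were called lower, and Alb, Apoa1, Hnf4a and Cps1 were not called. In bulk tissue, fewer cells of a type and less RNA per cell cannot be told apart. The 5 endothelial markers summed to 65.0 to 104 and 54.4 to 143 CPM with Lyve1 called higher, Kupffer cell markers to 87.1 to 140 and 106 to 151 CPM with Timd4 called higher, and stellate cell markers to 129 to 242 and 99.1 to 192 CPM with no call. B and plasma cell markers summed to 7.29 to 11.4 and 2.08 to 4.20 CPM, with 3 of 4 tested called lower. No marker of these lists was at 0 in all livers, and their part in the results was not tested.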

How the data were processed

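RNA was measured in 9 mouse livers, grouped by their titles into 4 control and 5 Alb-cre samples. Libraries kept strand, were depleted of ribosomal RNA and were read from both ends, per the labels' protocols. The tools fastp 0.23.2 and HISAT2 2.1.0 and the build GRCm39 are named in the submitters' processing notes. The sources used here do not give the counting tool, its strand setting or the annotation release. Values in the deposited file were the authors' whole-number gene counts, not normalized, and 0 of its sample columns were left unused.

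Genes passing filterByExpr (minimum count 10) were scaled by TMM and tested with edgeR 4.0.16 in R 4.3.3 (glmQLFit, glmQLFTest, 2-sided, group only). P was adjusted by Benjamini-Hochberg over 14004 genes. SE was the log2 fold change divided by the square root of F. Alternatives were upper-quartile or RLE scaling, library totals, DESeq2 1.42.0, limma-voom (limma 3.58.1), other filters, replicate blocks, removal of mitochondrial and the 20 most abundant genes, length correction and each liver left out.

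The genes, roles and lists were chosen with earlier results of these data known. Named were all called genes, a set of core factors whatever their result, the gene with the widest range within a group, and from each partner list the kinases and phosphatase subunits or the called genes of smallest adjusted p in each direction. Other genes named, such as Eif2b2, Eif3b, Eif3h, Eif3j2 and Eif4b, were chosen after their values were seen. Transcript lengths, exon overlaps and promoters came from GENCODE M21 and RefSeq on GRCm38. Figures were drawn with matplotlib 3.10.9. Totals of 13361093 to 16823506 counts per liver set the counting precision.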

Additional observations from a re-analysis of the deposited data

Results flagged for a closer look

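In 5 of 92 groups of livers, counted over the 46 genes and both groups, 1 liver stood apart from the others of its group by Dixon's test at the 95% level, and chance flags about 1 in 20 groups. Eif5 in Alb-cre 4 was at 170.5 CPM against 207.6 to 220.6 in the other Alb-cre livers. Eif2s1 in Alb-cre 5 was at 45.04 CPM against 35.66 to 37.01, and this gene was called higher. Eif3h in control 2 was at 142.5 CPM against 128 to 129.9 in the other controls. Eif3j2 in Alb-cre 5 was at 5.182 CPM against 1.656 to 2.422. Eif4a1 in Alb-cre 2 was at 348.3 CPM against 260 to 282.7.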

How the results depend on the processing

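The 6 rises and 1 fall among the initiation factor genes moved with several choices. Rises numbered 11 with DESeq2, and 2 to 7 with each liver left out. Falls numbered 2 with upper-quartile factors, with the stricter filter and with length correction, 3 with DESeq2, 0 with library totals and with no filter, and 0 to 2 with each liver left out. Among partner genes, rises numbered 14 with DESeq2 and 5 to 10 with each liver left out, against 8. Calls in either direction over all genes, 18.3% in the report, were 24.1% with DESeq2, 18.4% with upper-quartile factors and 20.2% with the stricter filter. They were 15.3% with length correction, 14.8% with library totals, 12.5% with no filter and 8.36 to 18.2% with each liver left out. Whether the replicate numbers pair the livers could not be decided. Deviations of same-numbered livers correlated at 0.06, -0.01, 0.11 and 0.15 for title numbers and at 0.06, -0.11 and -0.13 for description numbers. No correlations of differently numbered livers were set beside them. With the title number as a replicate block there were 4 rises and 0 falls among initiation factor genes, with 12.4% of all genes called. With the description number as a replicate block there were 0 rises and 0 falls, and 1 rise and 0 falls among partners, with 3.78% of all genes called against 18.3%. Only description numbers 1, 5 and 6 occur in both groups. The group difference in that fit therefore rests on the livers with these numbers, and its power is low. Eif1a and Eif2b4 were called in 19 of 20 alternatives, Eif2s1 in 10 and Eif4a2 in 8. Eif4g1 and Eif4b, not called in the report, were each called in 6 of the 20, among them DESeq2, upper-quartile factors and the stricter filter. Some log2 fold changes of uncalled genes reversed. Eif5a was at -0.0369 with upper-quartile factors, -0.0077 with library totals, -0.00020 with limma-voom, -0.0014 with the stricter filter, -0.0046 with the description block and -0.058 to 0.043 with each liver left out. Eif4e2 was at 0.0034 with no filter, 0.022 with the title block, 0.044 with length correction and -0.075 to 0.039 with each liver left out. Ppp1r15a was at 0.026 with limma-voom, 3.8e-05 with no filter, 0.043 with the title block, 0.012 with the description block and -0.21 to 0.17 with each liver left out. Eif1b was at 0.15 with length correction and -0.078 to 0.060 with each liver left out. With each liver left out Eif5 was at -0.088 to 0.061 and Eif2s2 at -0.085 to 0.17. Eif4ebp3, at -0.26 in the report, was at 0.17 with the description block. Of all values of named genes under alternatives, 960 kept their direction and side of the threshold, 69 lost a call, 21 gained one and 30 reversed. The cause was not tested. Calls of all genes fell to 8.36% without control 2 and 8.54% without control 4. Counts were lowest for Eif4ebp3, at 7 to 33 per liver, and Eif3j2, at 15 to 78.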
